A study of Mus musculus with 22 samples.

Results

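The p53 target genes are genes known, from other work, to be bound and activated by p53. The 32 genes described here were matched by symbol, ignoring case, in both expression tables of a study of mouse liver tumours, out of 24063 genes in the first table and 24019 in the second. Where the first table held several transcripts of a gene, the one with the highest mean stood for it. All 32 passed the filter on low values in both tables, among 16108 and 15625 genes that passed. The list was drawn up by known function, without a threshold on measured values but with earlier results of these data known.

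Transcript levels were measured by RNA sequencing of bulk tumours from C57BL/6 mice, raised by pushing plasmids into liver cells through the tail vein (hydrodynamic injection). Every tumour carried MYC, and none was treated. The groups differ in the second driver, which is either β-catenin (labelled bcat in set 1 and CTNNB1 in set 2) or p53 (labelled p53 in set 1 and, in the sample names of set 2, sgp53, a guide RNA against p53). They also differ in the marker that was delivered, which is either lucOS, a luciferase joined to model T cell antigens, or luciferase alone (luc). Set 1 holds 2 lucOS β-catenin, 4 luc β-catenin, 3 lucOS p53 and 3 luc p53 tumours. Set 2 holds 3 lucOS β-catenin, 3 luc β-catenin and 4 lucOS p53 tumours. The age of the mice and of the tumours is not given in the sources used here. Whether different tumours came from different mice is not stated, so p-values measure the spread between these tumour samples, which may in part be technical. Host cells within the tumours, such as blood vessel, stromal and immune cells, were not injected liver cells and keep their own p53.

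p53 is a transcription factor that is kept low by the ubiquitin ligase MDM2 and is stabilised by DNA damage and by oncogenes, MYC among them. It raises genes that stop the cell cycle, start apoptosis, restrain growth signalling and repair DNA, and it raises Mdm2 itself, which closes a feedback loop. In the liver, loss of p53 together with MYC gives fast-growing tumours, and p53 mutation and β-catenin mutation are both common in human hepatocellular carcinoma.

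p53 binds DNA as a tetramer on a pair of half-sites of 10 bases each. The promoter windows of RefSeq on GRCm38.p6, from 250 bases before to 50 bases after each annotated start, held entries for 24 of the 32 genes. The p53 consensus half-site was searched by its letters, and since the consensus reads the same on both strands, 1 search covers both. It was found in 9 of the 24 genes (Cdkn1a, Ccng1, Mdm2, Bax, Ei24, Aen, Polk, Sesn1 and Rps27l), against 9.55% of 27025 genes with a window and 8.36% of all 32851 windows. A pair of half-sites at most 13 bases apart was found in 1 of the 24, Cdkn1a, against 0.0731% of all windows. Among the genes that passed the test in a comparison of the drivers below, 4 of 10 with an entry held a half-site, and among the others 5 of 14 did. A match says only that these letters stand in this window, and bases outside the windows were not searched. A window can lie around a start within a gene, as with those that held the half-sites of Polk, Sesn1 and Rps27l.

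The Cdkn1a window is shown because it alone held a pair, with both half-sites in capitals, 12 bases apart, the upstream one starting 73 bases before the start site (chr17:29090729-29091028, plus strand, 5′ to 3′).
Cdkn1a: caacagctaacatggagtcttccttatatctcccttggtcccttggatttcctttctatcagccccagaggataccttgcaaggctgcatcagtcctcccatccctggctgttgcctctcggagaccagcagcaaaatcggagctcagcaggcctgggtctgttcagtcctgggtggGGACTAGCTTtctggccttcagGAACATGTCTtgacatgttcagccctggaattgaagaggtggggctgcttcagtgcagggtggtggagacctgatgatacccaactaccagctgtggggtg

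The next 4 stretches of 40 bases show the half-site, in capitals, of Ccng1, which was higher in β-catenin tumours of both sets, of Mdm2 and Polk, which passed in set 1, and of Bax, which did not pass in either set (chr11:40755447-40755486, minus strand; chr10:117710920-117710959, minus strand; chr13:96519394-96519433, minus strand; chr7:45467075-45467114, minus strand).
Ccng1: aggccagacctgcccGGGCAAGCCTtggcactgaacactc
Mdm2: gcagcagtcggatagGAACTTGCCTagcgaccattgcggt
Polk: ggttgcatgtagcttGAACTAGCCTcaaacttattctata
Bax: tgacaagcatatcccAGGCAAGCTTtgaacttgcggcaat
The half-site of Ccng1 starts 185 bases before the start site, that of Mdm2 186, that of Polk 231 and that of Bax 201 bases before it. All 4 thus lie in the upstream part of the window. For Polk this start lies within the gene, which is annotated from 96480690 to 96542579 on the minus strand.

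Depth ran from 33.706 to 54.873 M reads (1 M is 1e6) over genes per tumour in set 1 and from 33.551 to 50.116 M in set 2, and values are given as normalized signal, which is reads divided by 1 factor per tumour. Rn45s, which holds ribosomal RNA, made up 8.90% of reads in 1 library, luc p53 tumour 1 of set 1, and 0.741% to 2.04% in the others. Trp53, the targeted gene, averaged 4145 ± 1200.2 in lucOS β-catenin (SD, n = 2) and 4481 ± 534 in luc β-catenin (n = 4) tumours of set 1, against 1663 ± 250.3 in lucOS p53 and 1865 ± 359 in luc p53 tumours (n = 3 each). In set 2 it averaged 3423 ± 902 in lucOS β-catenin and 3847 ± 692 in luc β-catenin (n = 3 each), against 1763 ± 382 in lucOS p53 tumours (n = 4). Every β-catenin tumour was above every p53 tumour in both sets, and Trp53 was 2.44-fold higher in β-catenin tumours of set 1 (limma adjusted p = 0.000468) and 1.93-fold in lucOS tumours of set 2 (adjusted p = 0.0237). Reads of Trp53 remained in every p53 tumour. Of 6 hepatocyte markers, Alb and Tf were higher in β-catenin tumours of set 1 and none passed in set 2. The summed markers ran from 923344 to 1196510.0 in β-catenin and from 445748 to 743148 in p53 tumours of set 1, and from 233427 to 994194 in β-catenin and from 277595 to 473140.0 in p53 tumours of set 2. The 5 bile duct markers summed to 186 to 4344 in β-catenin and 1743 to 16698 in p53 tumours of set 1, and 3 of them (Krt19, Sox9 and Spp1) were lower. In set 2 they summed to 732 to 3259 in β-catenin and 1545 to 7888 in p53 tumours, and 0 passed, with Krt7 and Krt19 above 0. The 5 T and NK cell markers summed to 32.2 to 65.6 in β-catenin and 58.0 to 366 in p53 tumours of set 1, where Cd3g and Cd8a were lower, and to 22.3 to 61.4 in β-catenin and 258 to 443 in p53 tumours of set 2, where all 5 were lower. Of the markers of B cells (2 tested), macrophages (5), neutrophils (3), endothelial cells (5) and stellate cells (6), 0 passed in set 1. In set 2 Clec4f and Dcn were higher, and Csf1r, Adgre1, Cxcr2, Cdh5 and Pecam1 were lower. No marker was at 0 in every tumour. In bulk samples, fewer cells of a type and less RNA per cell cannot be told apart, and the part of these cell types in the results below was not tested. In set 2 all 6 β-catenin tumours have names starting with JAX, while 3 of the 4 p53 tumours have names starting with AL. What the starts stand for is not given, and in set 2 they can hardly be told apart from the driver. With JAX-named tumours alone, and so 1 p53 tumour, the spread between p53 tumours was not measured. All 9 targets called in set 2 below kept their direction there. The log2 difference, β-catenin minus p53, was 3.82 in place of 4.33 for Eda2r and 1.52 in place of 1.42 for Ccng1. It was 1.01 in place of 1.45 for Fas and -2.56 in place of -2.86 for Pmaip1.

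The main question here was which p53 targets differ between β-catenin and p53 tumours. In set 1, with the luc and lucOS differences averaged, 11 of the 32 targets were higher and 1 was lower in β-catenin tumours at an adjusted p under 0.05 (limma on log2 of the signal plus 1, Benjamini-Hochberg over all genes). Across all genes 9.73% were called higher and 18.6% lower. The share of the targets called higher was 34.4% and the share called lower 3.12%. In lucOS tumours of set 2, 7 targets were higher and 2 lower, that is 21.9% and 6.25%, with 6.08% and 10.9% of all genes called. The direction differed between genes of the same pathway. The cyclin Ccng1, the receptors Fas and Eda2r, the nuclease Aen, Phlda3, Zmat3 and the reductase Dcxr were higher in both sets. Pmaip1 (NOXA) was lower in both, and 19 targets, with Cdkn1a (p21), Bax and Bbc3 (PUMA) among them, passed in neither.

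The 7 targets called higher in both sets compare with 4.11% of the 15378 genes tested in both, and the 1 called lower in both with 6.46%. Within luc tumours of set 1 alone 6 were higher and 1 lower (Pmaip1), with 5.93% and 9.16% of all genes called. Within lucOS tumours of set 1, with 2 against 3 tumours, 2 were higher (Ccng1 and Dcxr) and 0 lower, with 1.62% and 2.59%. The median log2 difference of the 32 was 0.53 in set 1 and 0.10 in set 2, where that of all genes was -0.16 in each. Within luc and within lucOS tumours of set 1 the medians were 0.39 and 0.52, against -0.20 and -0.15 over all genes. Every β-catenin tumour of set 1 was above every p53 tumour for 6 targets and below for 1, with 4.71% and 8.96% of all genes. In set 2 this compared all 6 β-catenin tumours, luc and lucOS, with 4 p53 tumours that were all lucOS. There 8 targets were fully above and 3 fully below, with 7.14% and 15.9% of all genes. In both sets 5 were above (Ccng1, Eda2r, Phlda3, Zmat3 and Dcxr). Rescaling with TMM factors moved the median difference of all genes by 0.17 in set 1 and 0.15 in set 2. All calls were then 2084 higher and 1712 lower in set 1, in place of 1568 and 2994, and 1295 and 1056 in set 2, in place of 950 and 1706. The targets were then 13 higher and 1 lower in set 1 and 8 higher and 2 lower in set 2. Within luc and within lucOS tumours of set 1 the shifts were 0.19 and 0.15, all calls became 1229 higher with 679 lower (in place of 956 and 1475) and 326 with 203 (in place of 261 and 417), and the targets 9 with 1 and 3 with 0.

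**Figure D1:**
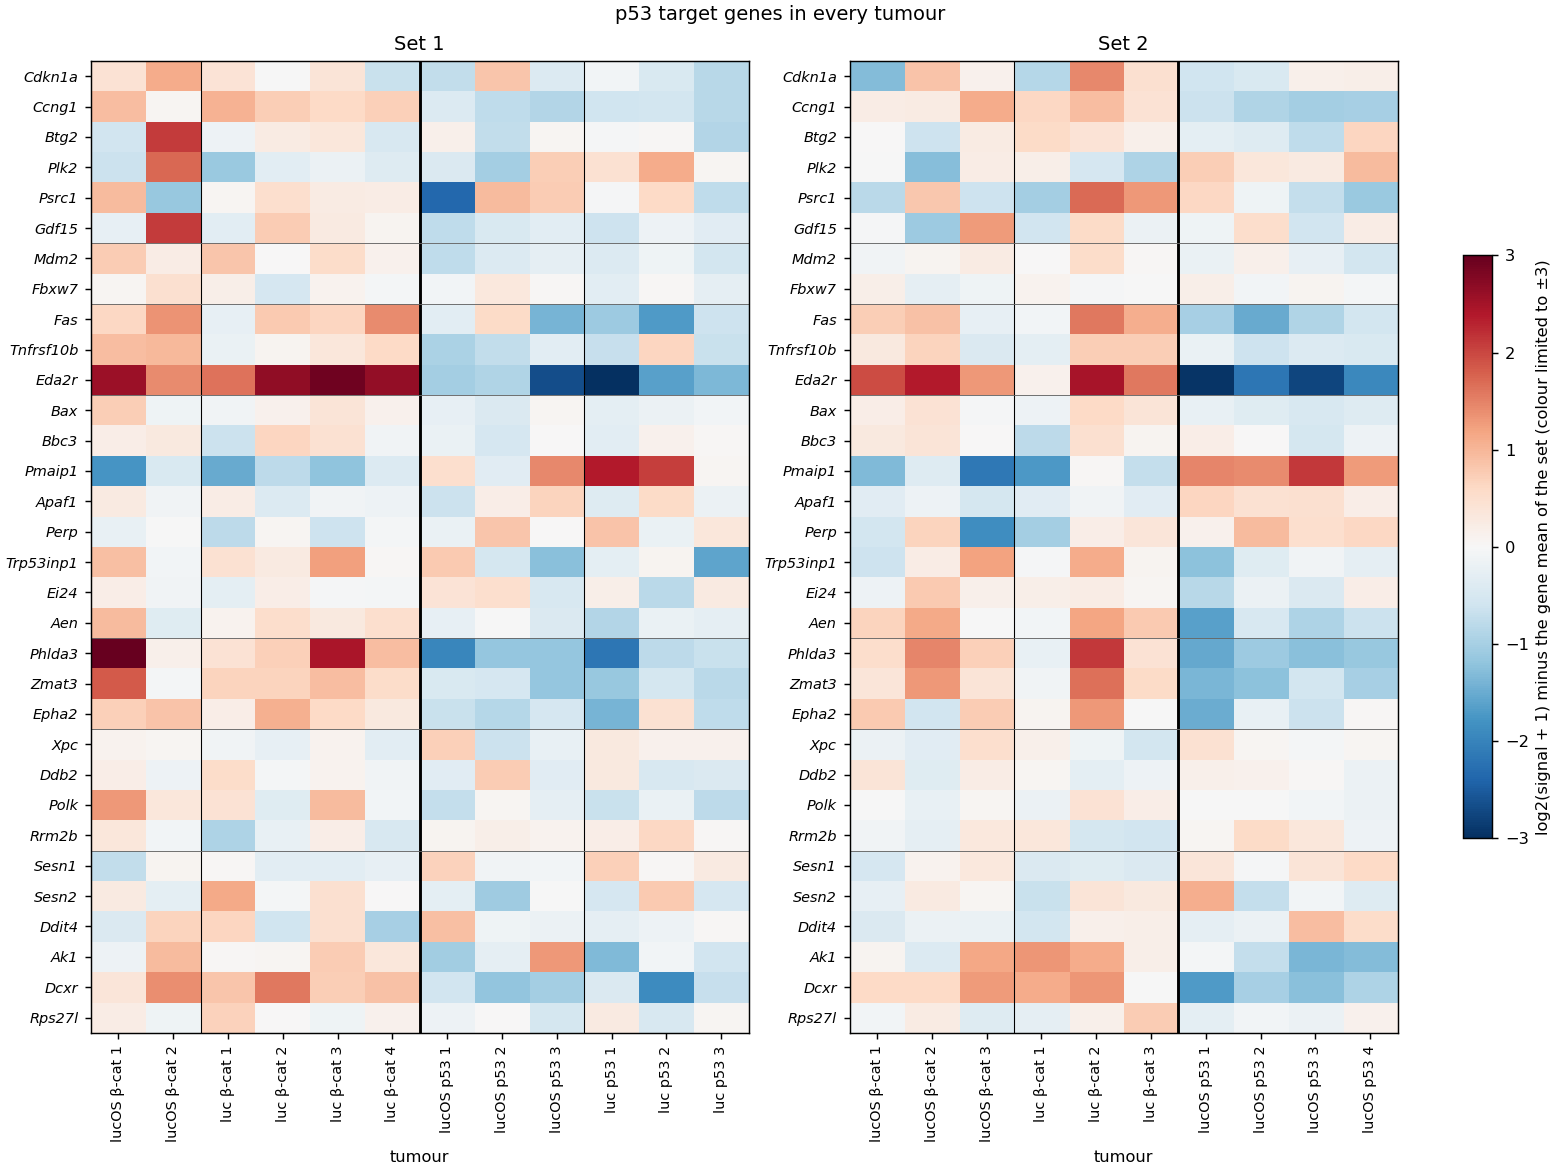
Each square is 1 p53 target (rows, grouped by role) in 1 tumour (columns), coloured by its log2(signal + 1) minus the mean of that gene over the tumours of the set, with colour limited to 3 units. In each set the thick line parts β-catenin tumours (left) and p53 tumours (right). The row of Eda2r splits at that line in both sets and that of Pmaip1 splits the other way, while most rows, such as Fbxw7, Ddb2 and Rps27l, show no such split.

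**Figure D2:**
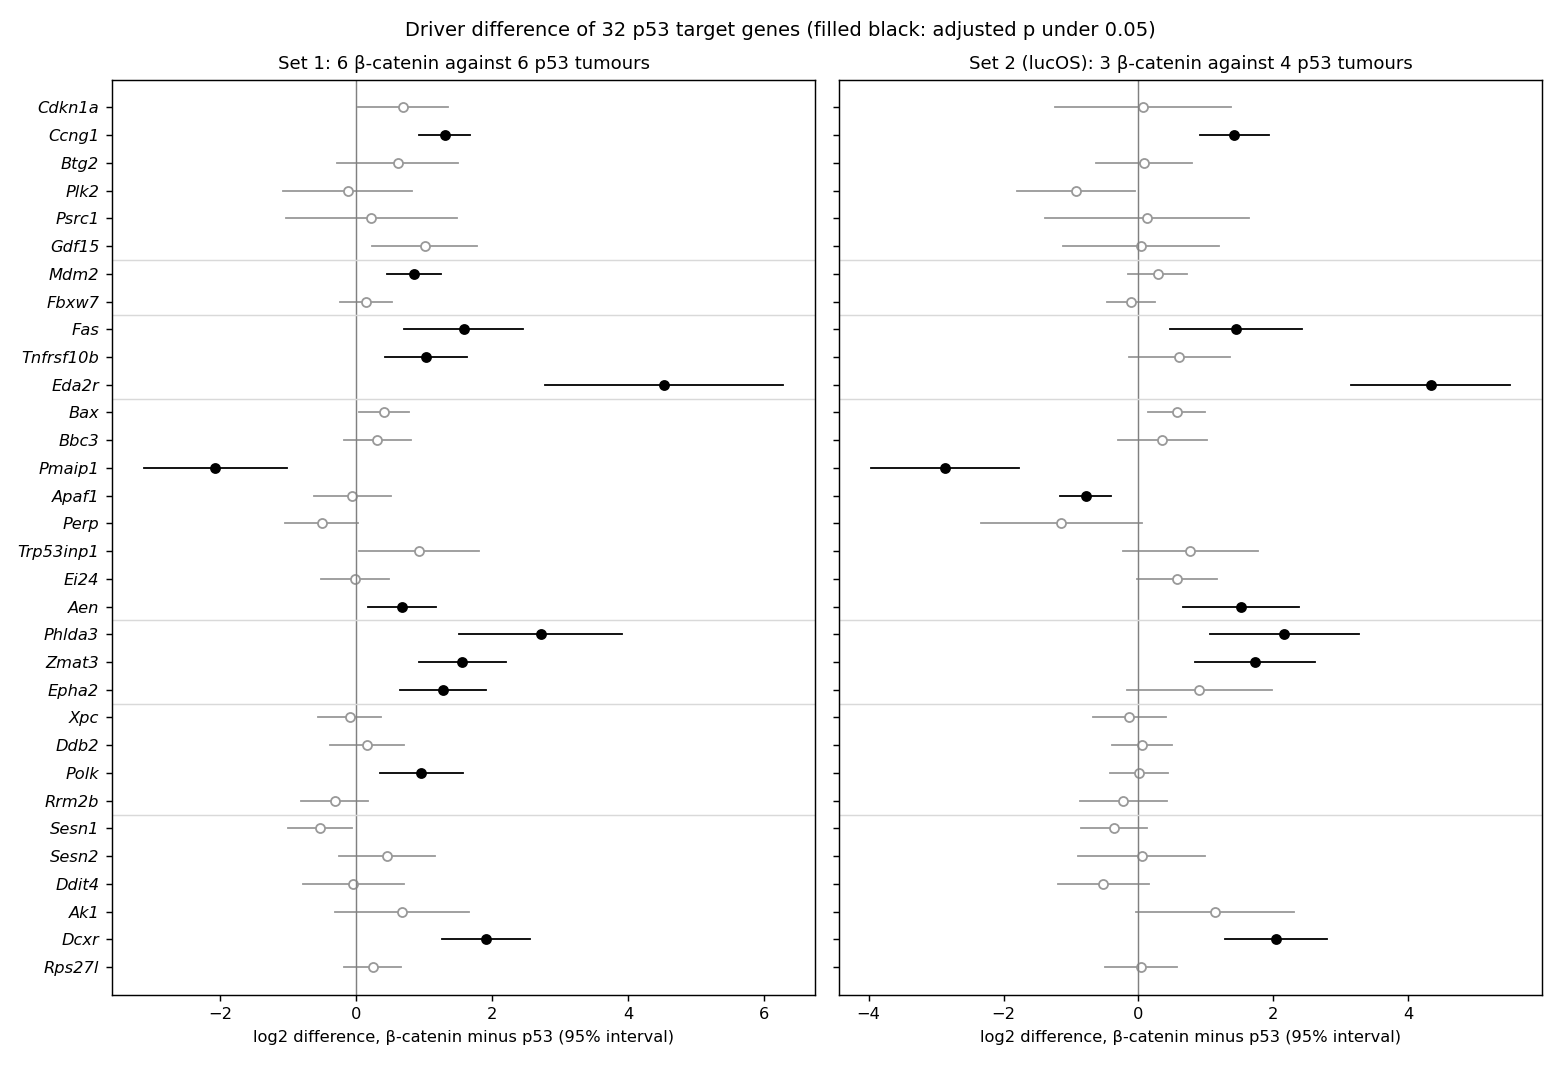
Points give the fitted log2 difference of each target, β-catenin minus p53, and lines its 95% interval, for 6 against 6 tumours of set 1 (left) and 3 against 4 lucOS tumours of set 2 (right). Filled black points passed an adjusted p of 0.05. Eda2r is farthest to the right, at 4.53 and 4.33, and Pmaip1 farthest to the left, at -2.07 and -2.86.

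Among the 6 genes of cell cycle arrest and growth control, Ccng1 alone passed. It encodes cyclin G1, which binds a protein phosphatase that acts on MDM2 (chromosome 11, 40748552 to 40755311, minus strand, GRCm38). In set 1, Ccng1 had 3485 and 1914 in lucOS β-catenin tumours and 3814, 3082, 2787 and 3012 in luc β-catenin tumours, against 1399, 1087 and 1000.4 in lucOS p53 tumours and 1215, 1264 and 1033 in luc p53 tumours. In set 2 Ccng1 had 2838, 2882 and 5257 in lucOS β-catenin tumours and 3737, 4581 and 3253 in luc β-catenin tumours, against 1551, 1302, 1196 and 1219 in lucOS p53 tumours. The 12 β-catenin tumours were all above the p53 tumours of their set. Ccng1 was 2.46-fold higher in set 1 (log2 1.30 ± 0.17 SE, limma adjusted p = 0.00075) and 2.67-fold higher in set 2 (log2 1.42 ± 0.23, adjusted p = 0.00635).

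Cdkn1a, which encodes the cyclin-dependent kinase inhibitor p21, is the best known p53 target and was not called. In set 1 it had 4905 and 7847 in lucOS β-catenin tumours and 4784, 3571, 4700.3 and 2256 in luc β-catenin tumours, against 2164, 6459 and 2716 in lucOS p53 tumours and 3400.1, 2618 and 2033 in luc p53 tumours. In set 2 Cdkn1a had 861, 3877 and 2331 in lucOS β-catenin tumours and 1171, 5758 and 2977 in luc β-catenin tumours, against 1410.0, 1561, 2384 and 2413 in lucOS p53 tumours. The groups overlapped in both sets, and in set 2 the lowest and the highest tumour were both β-catenin tumours. The log2 difference was 0.68 in set 1 (95% interval 0.02 to 1.35, limma adjusted p = 0.112) and 0.07 in set 2 (-1.23 to 1.37, adjusted p = 0.945), so that a difference of 2-fold in either direction lies within the interval of set 2. Leaving out lucOS p53 tumour 2 of set 1, the highest p53 tumour at 6459, gave 0.92 with an adjusted p of 0.0193. Leaving out lucOS β-catenin tumour 2 of set 1 gave 0.51, with 1 tumour left in that group. In set 2 the difference was 0.67 (adjusted p = 0.432) without lucOS β-catenin tumour 1. There it was -0.41 (adjusted p = 0.669) without lucOS β-catenin tumour 2.

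The other 4 arrest genes did not pass. Gdf15, a secreted stress cytokine, had 594 and 2979 in the lucOS β-catenin tumours of set 1, against 416, 508 and 559.5 in lucOS p53 tumours, and its difference over set 1 was 1.01 (adjusted p = 0.0523), with 0.04 in set 2 (adjusted p = 0.967). It passed in set 1 under TMM rescaling, under median centring, with edgeR and with DESeq2. Its difference in set 1 was 1.09 (limma adjusted p = 0.0459) without luc β-catenin tumour 1. That difference was 1.59 without lucOS β-catenin tumour 1 and 0.43 without lucOS β-catenin tumour 2, each with 1 tumour left in that group. In set 2 it was 0.61 (adjusted p = 0.38) without lucOS β-catenin tumour 2 and -0.57 (adjusted p = 0.413) without lucOS β-catenin tumour 3. Btg2, an antiproliferative factor, ran from 1345 to 8508 in β-catenin and from 1081 to 2213 in p53 tumours of set 1. That of 8508 was lucOS β-catenin tumour 2, which also held the highest Gdf15 (2979) and Plk2 values, and without it the Btg2 difference was -0.06 in place of 0.61 (adjusted p = 0.288 with it). Without lucOS β-catenin tumour 1 it was 1.27. Leaving out either tumour left 1 in the lucOS β-catenin group. In set 2 the Btg2 difference was 0.08 (adjusted p = 0.879). Plk2, a polo-like kinase of centriole duplication, was -0.13 in set 1 and -0.93 in set 2 (limma adjusted p = 0.86 and 0.125). In set 1 it was 0.46 without lucOS β-catenin tumour 1 and -0.71 without lucOS β-catenin tumour 2, again with 1 tumour left in that group. In set 2 its β-catenin tumours, at 199 to 567, were all below the p53 tumours, at 583 to 937. Psrc1, a spindle protein, spread widely within groups, from 358 to 1509 in β-catenin and 154 to 1524 in p53 tumours of set 1, and differed by 0.22 and 0.13 in the 2 sets (adjusted p = 0.811 and 0.913).

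Of the feedback genes, Mdm2 passed in set 1 and Fbxw7 did not. Mdm2 encodes the ligase that degrades p53 (chromosome 10, 117688875 to 117710758, minus strand). In set 1, Mdm2 had 4390.2 and 3019.8 in lucOS β-catenin tumours and 4587, 2623, 3818 and 2846 in luc β-catenin tumours, against 1533, 1948 and 2154 in lucOS p53 tumours and 1958, 2385 and 1781 in luc p53 tumours. In set 2 Mdm2 had 2183, 2477 and 2752 in lucOS β-catenin tumours and 2367, 3408 and 2397 in luc β-catenin tumours, against 2036, 2608, 1979 and 1586 in lucOS p53 tumours. The groups did not overlap in set 1, where Mdm2 was 1.81-fold higher (log2 0.85 ± 0.18 SE, limma adjusted p = 0.00667). They overlapped in set 2, where lucOS p53 tumour 2 reached 2608 and the difference was 0.28 (95% interval -0.16 to 0.72, adjusted p = 0.336). Fbxw7, part of the ubiquitin ligase that degrades MYC and cyclin E, ran from 513 to 1012 in β-catenin and 584 to 906 in p53 tumours of set 1, with differences of 0.14 and -0.11 in the 2 sets (adjusted p = 0.586 and 0.669).

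Eda2r, Fas and Tnfrsf10b, which encode receptors, were all higher in set 1, and Eda2r and Fas also in set 2. Eda2r, a receptor for ectodysplasin A2 (chromosome X, 97333840 to 97377216, minus strand), differed most of the 32. In set 1, Eda2r had 452 and 203 in lucOS β-catenin tumours and 236, 479.6, 574 and 475 in luc β-catenin tumours, against 36.6, 39.8 and 11.0 in lucOS p53 tumours and 0, 23.8 and 29.2 in luc p53 tumours. In set 2 Eda2r had 544, 735 and 346 in lucOS β-catenin tumours and 153, 779.6 and 422 in luc β-catenin tumours, against 17.3, 30.4, 19.9 and 35.6 in lucOS p53 tumours. No β-catenin tumour fell below 153 and no p53 tumour exceeded 39.8. The luc p53 tumour listed at 0 had no Eda2r read and is the tumour with the most Rn45s reads. The fitted fold change was 23.1 in set 1 (log2 4.53 ± 0.80 SE, limma adjusted p = 0.0029) and 20.1 in set 2 (log2 4.33 ± 0.53, adjusted p = 0.00228). Without that luc p53 tumour the log2 difference of set 1 was 3.73.

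Fas encodes the receptor of FAS ligand, through which T cells kill (chromosome 19, 34290666 to 34327772, plus strand). In set 1, Fas had 411 and 688 in lucOS β-catenin tumours and 226, 463, 418 and 717 in luc β-catenin tumours, against 215, 397 and 101 in lucOS p53 tumours and 125, 81.7 and 174 in luc p53 tumours. In set 2 Fas had 412, 456 and 206 in lucOS β-catenin tumours and 233, 736 and 528 in luc β-catenin tumours, against 122, 85.6, 131 and 168 in lucOS p53 tumours. The groups overlapped in set 1 through lucOS p53 tumour 2 and did not in set 2. Fas was 2.99-fold higher in set 1 (log2 1.58 ± 0.40 SE, adjusted p = 0.014) and 2.73-fold in set 2 (log2 1.45 ± 0.44, adjusted p = 0.0484). The call of set 1 was lost without lucOS β-catenin tumour 2, which left 1 tumour in that group. That of set 2 was lost without any 1 of lucOS β-catenin tumours 1 and 2 and lucOS p53 tumours 1, 2, 3 and 4 (limma adjusted p from 0.0546 to 0.121). Testing with no filter on low values also ended the call of set 2.

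Tnfrsf10b, the TRAIL death receptor of the mouse (chromosome 14, 69767472 to 69784411, plus strand), had 661 and 680.2 in lucOS β-catenin tumours and 301, 370.4, 440.4 and 523 in luc β-catenin tumours of set 1, against 179.7, 209 and 281 in lucOS p53 tumours and 215, 547 and 219.8 in luc p53 tumours. In set 2 Tnfrsf10b had 326, 421 and 197 in lucOS β-catenin tumours and 218, 443 and 446 in luc β-catenin tumours, against 231, 172, 199 and 192 in lucOS p53 tumours. Luc p53 tumour 2 of set 1 lay among the β-catenin tumours. Tnfrsf10b was 2.03-fold higher in set 1 (log2 1.02 ± 0.28 SE, limma adjusted p = 0.019). This call was lost without either of lucOS β-catenin tumours 1 and 2, each time with 1 tumour left in that group. In set 2 the difference was 0.60 (95% interval -0.15 to 1.35, adjusted p = 0.23).

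The 8 genes of mitochondrial and other apoptosis steps did not move together. Pmaip1, which encodes NOXA, a BH3-only protein that neutralises MCL1, was lower in β-catenin tumours. In set 1, Pmaip1 had 55.2 and 138 in lucOS β-catenin tumours and 65.7, 110.1, 82.4 and 144 in luc β-catenin tumours, against 272, 150.4 and 519 in lucOS p53 tumours and 1001, 810.2 and 198 in luc p53 tumours. In set 2 Pmaip1 had 85.1, 164 and 47.7 in lucOS β-catenin tumours and 64.9, 221 and 131 in luc β-catenin tumours, against 601, 575, 948 and 522 in lucOS p53 tumours. Every β-catenin tumour was below every p53 tumour of its set. Pmaip1 fell to a value 4.19-fold lower in β-catenin tumours of set 1 (log2 -2.07 ± 0.48 SE, limma adjusted p = 0.00995) and 7.28-fold lower in set 2 (log2 -2.86 ± 0.49, adjusted p = 0.00792). Transcription of this gene is also known to be raised without p53, by the integrated stress response among others.

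Aen, a nuclease that moves to the nucleus in apoptosis (chromosome 7, 78895854 to 78911209, plus strand), went the other way. In set 1, Aen had 3295 and 1326 in lucOS β-catenin tumours and 1829, 2467, 2092 and 2390.0 in luc β-catenin tumours, against 1424, 1686 and 1258 in lucOS p53 tumours and 927, 1474 and 1417 in luc p53 tumours. In set 2 Aen had 1632, 2275 and 1025 in lucOS β-catenin tumours and 979.8, 2337 and 1779 in luc β-catenin tumours, against 330.4, 742, 542 and 658 in lucOS p53 tumours. The groups overlapped in set 1 only through lucOS β-catenin tumour 2 and did not in set 2. Aen was 1.59-fold higher in set 1 (log2 0.67 ± 0.23 SE, adjusted p = 0.0469) and 2.87-fold in set 2 (log2 1.52 ± 0.38, adjusted p = 0.0276). The call of set 1 was lost without any 1 of 9 tumours. They were lucOS β-catenin tumour 1, luc β-catenin tumours 2, 3 and 4, and lucOS p53 tumours 1 and 3. Luc p53 tumours 1, 2 and 3 made up the rest. Leaving out lucOS β-catenin tumour 1 left 1 tumour in its group, and for the others limma adjusted p ran from 0.053 to 0.102. The call of set 1 was also lost with no filter on low values. That of set 2 was lost without any 1 of lucOS β-catenin tumours 1 and 2 and lucOS p53 tumours 1 and 3 (adjusted p from 0.0624 to 0.0753). Its promoter window held the half-site GGGCTTGTCC, which starts 11 bases after the start site.

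Apaf1, the scaffold of the apoptosome (chromosome 10, 90989311 to 91082770, minus strand), was lower in set 2. There it had 558, 637 and 492 in lucOS β-catenin tumours and 559, 657 and 562 in luc β-catenin tumours, against 1099, 975, 990.0 and 812 in lucOS p53 tumours, with no overlap. In set 1, Apaf1 had 804 and 623 in lucOS β-catenin tumours and 777, 507, 627 and 604 in luc β-catenin tumours, against 431, 772 and 1069 in lucOS p53 tumours and 513, 1002 and 596 in luc p53 tumours, and all β-catenin values lay within the range of the p53 values. The difference was -0.78 ± 0.17 SE in set 2 (limma adjusted p = 0.0162) and -0.06 in set 1 (95% interval -0.63 to 0.51, adjusted p = 0.89). The call was lost without either of lucOS β-catenin tumour 3 and lucOS p53 tumour 3 (adjusted p from 0.0501 to 0.0529).

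Bax and Bbc3, the pore former and the BH3-only protein PUMA that are the textbook effectors of p53 in apoptosis, did not pass. Bax had 4497 and 2472 in lucOS β-catenin tumours and 2519, 2958, 3521 and 2941 in luc β-catenin tumours of set 1, against 2290.0, 1998 and 2806 in lucOS p53 tumours and 2215, 2403 and 2536 in luc p53 tumours. In set 2 Bax had 2397, 2830.1 and 2039.8 in lucOS β-catenin tumours and 1889.6, 3158 and 2746 in luc β-catenin tumours, against 1785, 1617, 1491 and 1603 in lucOS p53 tumours, with every β-catenin tumour above every p53 tumour. Its differences were 0.41 and 0.57 (adjusted p = 0.0862 and 0.0658), and it passed in both sets under TMM rescaling, edgeR and DESeq2. Without lucOS β-catenin tumour 2 of set 1 the Bax difference there was 0.63, and without lucOS β-catenin tumour 1 it was 0.20. Reads of Bax cannot be told apart from those of Gm45808, which overlaps its exons on the same strand. Bbc3 ran from 716 to 1749.6 in β-catenin and 785 to 1230.1 in p53 tumours of set 1, with differences of 0.31 (-0.18 to 0.81) and 0.36 (-0.31 to 1.02) in the 2 sets. Perp, a membrane protein of cell junctions, was -0.51 and -1.14 (adjusted p = 0.146 and 0.161). Without lucOS β-catenin tumour 2 of set 2 the second of these was -1.77 (adjusted p = 0.0382), and without lucOS β-catenin tumour 3 it was -0.50 (adjusted p = 0.496). Trp53inp1, a cofactor of p53, was 0.92 and 0.77 (adjusted p = 0.109 and 0.248), and 1.20 (adjusted p = 0.0365) in set 1 without lucOS p53 tumour 1. The Trp53inp1 difference of set 1 was 0.67 (adjusted p = 0.216) without luc p53 tumour 3, and 0.67 without lucOS β-catenin tumour 1. Ei24, a membrane protein of the endoplasmic reticulum, was -0.02 in set 1 and 0.57 in set 2 (adjusted p = 0.966 and 0.157).

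**Figure D3:**
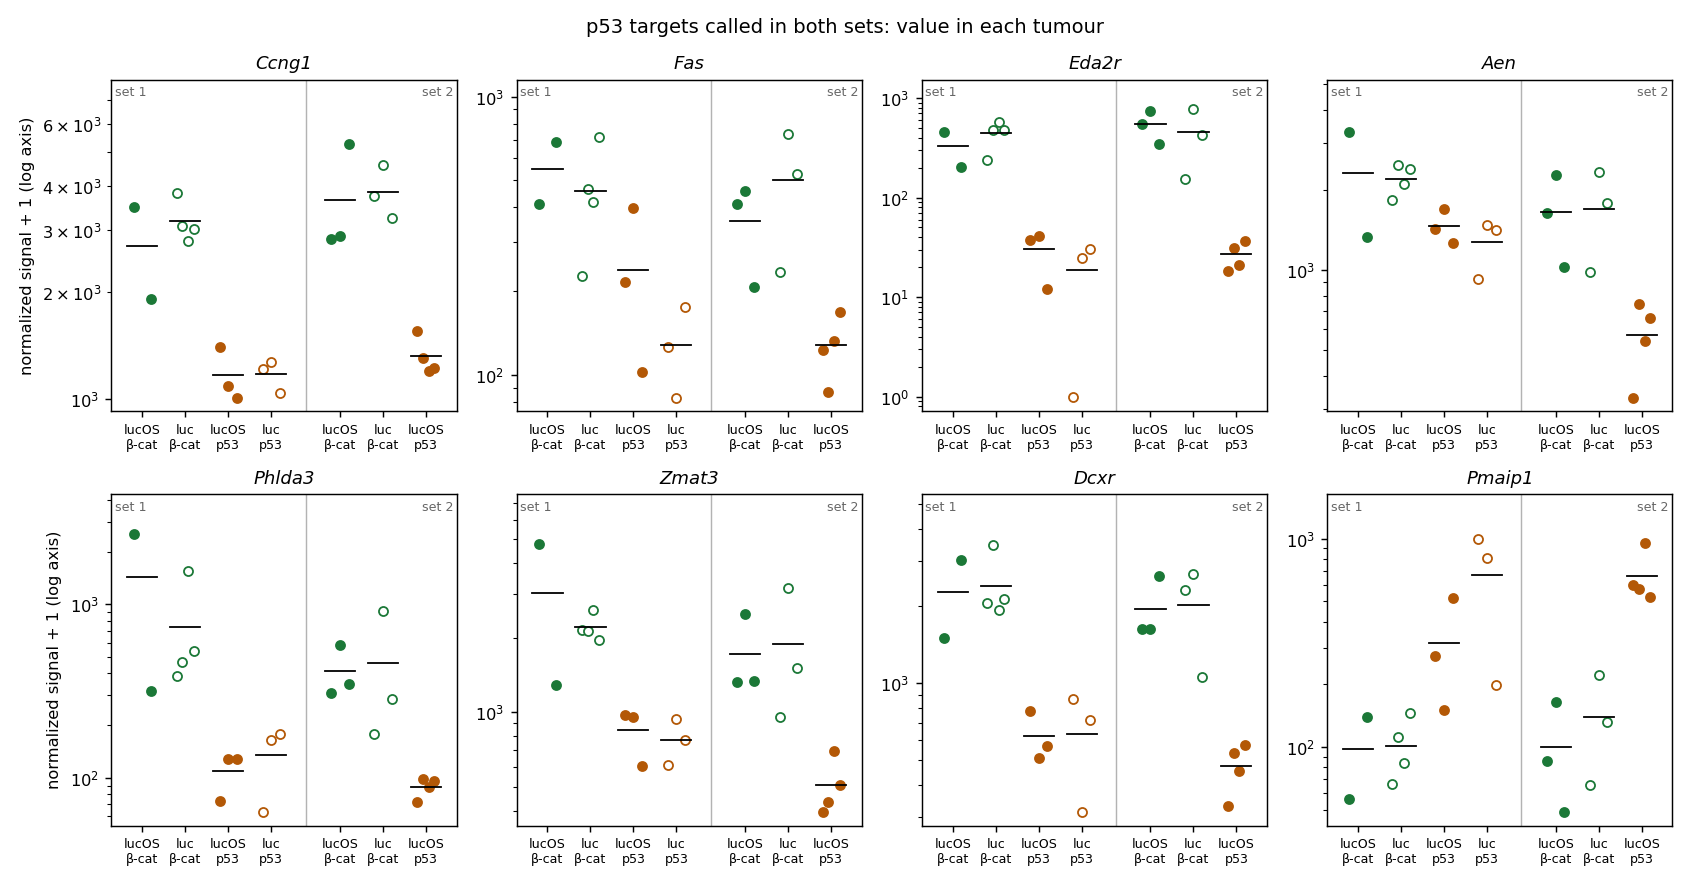
Normalized signal plus 1 (log axis) of the 8 targets called in both sets, with 1 point per tumour, filled for lucOS and open for luc, and a bar at the mean of each group. Within each panel set 1 is left and set 2 right of the grey line, with β-catenin tumours in green and p53 tumours in orange. In the panels of Ccng1, Eda2r, Phlda3, Zmat3 and Dcxr no orange point of a set reaches its green points, and in that of Pmaip1 the orange points of each set lie above the green points of that set.

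The 3 genes that restrain or modulate survival signalling were all higher in set 1. Phlda3 encodes a small protein that keeps the kinase AKT off the membrane (chromosome 1, 135766119 to 135769136, plus strand). In set 1, Phlda3 had 2559 and 315 in lucOS β-catenin tumours and 384, 465, 1558 and 538 in luc β-catenin tumours, against 72.4, 126 and 127 in lucOS p53 tumours and 62.5, 165 and 178 in luc p53 tumours. In set 2 Phlda3 had 305, 579.6 and 345 in lucOS β-catenin tumours and 178, 915 and 282 in luc β-catenin tumours, against 71.2, 97.5, 87.6 and 95.1 in lucOS p53 tumours. All β-catenin tumours were above the p53 tumours of their set, but those of set 1 spanned an 8.12-fold range. Phlda3 was 6.54-fold higher in set 1 (log2 2.71 ± 0.55 SE, limma adjusted p = 0.00535). The log2 difference was 1.96 without lucOS β-catenin tumour 1 and 3.46 without lucOS β-catenin tumour 2, each with 1 tumour left in that group. In set 2 it was 4.47-fold higher (log2 2.16 ± 0.49, adjusted p = 0.02), a call lost without any 1 of lucOS β-catenin tumours 2 and 3 and lucOS p53 tumours 1 and 3 (adjusted p from 0.0505 to 0.0545).

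Zmat3 encodes a zinc finger protein that binds RNA and regulates splicing (chromosome 3, 32334792 to 32366014, minus strand). In set 1, Zmat3 had 4786 and 1289 in lucOS β-catenin tumours and 2148, 2129, 2576 and 1962 in luc β-catenin tumours, against 974, 951 and 605 in lucOS p53 tumours and 608, 937 and 772 in luc p53 tumours. In set 2 Zmat3 had 1322, 2495 and 1334 in lucOS β-catenin tumours and 954, 3187 and 1507 in luc β-catenin tumours, against 392, 431, 695 and 509 in lucOS p53 tumours. The groups did not overlap in either set. Zmat3 was 2.95-fold higher in set 1 (log2 1.56 ± 0.29 SE, adjusted p = 0.00374) and 3.31-fold in set 2 (log2 1.73 ± 0.40, adjusted p = 0.0209). The call of set 2 was lost without either of lucOS β-catenin tumour 2 and lucOS p53 tumour 1 (adjusted p from 0.057 to 0.0573).

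Epha2, a receptor tyrosine kinase for ephrins (chromosome 4, 141301240 to 141329384, plus strand), had 2165 and 2375 in lucOS β-catenin tumours and 1525, 2772, 2010.5 and 1627 in luc β-catenin tumours of set 1, against 834, 725 and 934 in lucOS p53 tumours and 499.7, 1825 and 780.1 in luc p53 tumours. In set 2 Epha2 had 1261, 485 and 1230.2 in lucOS β-catenin tumours and 768, 1778 and 716 in luc β-catenin tumours, against 259, 619, 466 and 744 in lucOS p53 tumours. Luc p53 tumour 2 was the one p53 tumour of set 1 that reached the β-catenin range. Epha2 was 2.43-fold higher in set 1 (log2 1.28 ± 0.29 SE, limma adjusted p = 0.00864), and its difference in set 2 was 0.90 (95% interval -0.17 to 1.97, adjusted p = 0.21).

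Among the 4 DNA repair genes, Polk passed in set 1 and none passed in set 2. Polk encodes DNA polymerase kappa, which copies past damaged bases (chromosome 13, 96480690 to 96542579, minus strand). In set 1, Polk had 1339 and 689 in lucOS β-catenin tumours and 739, 425, 1059.8 and 517 in luc β-catenin tumours, against 333, 567 and 451 in lucOS p53 tumours and 341, 475 and 317 in luc p53 tumours. In set 2 Polk had 459, 396 and 488 in lucOS β-catenin tumours and 409.9, 630.3 and 538 in luc β-catenin tumours, against 464, 460.0, 439.8 and 409 in lucOS p53 tumours. The groups overlapped in both sets, and in set 2 the lucOS values lay within a narrow band. Polk was 1.94-fold higher in set 1 (log2 0.96 ± 0.28 SE, limma adjusted p = 0.0264). This call was lost without any 1 of lucOS p53 tumour 1 and luc p53 tumours 1 and 3 (limma adjusted p from 0.0533 to 0.058). It was also lost without lucOS β-catenin tumour 1, which left 1 tumour in that group. The Polk difference in set 2, within lucOS tumours alone, was 0.01 (95% interval -0.42 to 0.44). That interval does not reach the set 1 estimate of 0.96, which averages luc and lucOS tumours and has its own SE of 0.28. Whether the sets differ was not tested.

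The damage sensors Xpc and Ddb2 and the ribonucleotide reductase subunit Rrm2b did not pass. Xpc differed by -0.10 and -0.13, with 95% intervals of -0.56 to 0.36 and -0.67 to 0.40. Ddb2 differed by 0.16 and 0.05 (-0.38 to 0.70 and -0.39 to 0.50), and its reads cannot be told apart from those of Acp2, which overlaps it on the opposite strand. Rrm2b differed by -0.32 and -0.22 (-0.82 to 0.18 and -0.87 to 0.42). These intervals exclude a 2-fold difference in both sets.

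Of the 6 genes of metabolism and stress, Dcxr alone passed. It encodes dicarbonyl and L-xylulose reductase, an enzyme abundant in liver and kidney (chromosome 11, 120725399 to 120727281, minus strand). In set 1, Dcxr had 1494 and 3031 in lucOS β-catenin tumours and 2058, 3456, 1932 and 2125 in luc β-catenin tumours, against 779, 509 and 567 in lucOS p53 tumours and 862, 311 and 716 in luc p53 tumours. In set 2 Dcxr had 1621, 1619 and 2622 in lucOS β-catenin tumours and 2309, 2675 and 1057 in luc β-catenin tumours, against 330.4, 534, 451 and 569 in lucOS p53 tumours. The groups did not overlap in either set. Dcxr was 3.75-fold higher in set 1 (log2 1.91 ± 0.29 SE, adjusted p = 0.00151) and 4.12-fold in set 2 (log2 2.04 ± 0.34, adjusted p = 0.00694). Of the 6 hepatocyte markers, Alb and Tf were higher in the same tumours of set 1 and the other 4 did not pass. In set 2 none of the 6 passed, and their median log2 difference was -0.23. The part of hepatocyte markers in the Dcxr difference was not tested.

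Sesn1 and Sesn2, which restrain the growth kinase mTORC1, did not pass. Sesn1 had 572 and 1008 in lucOS β-catenin tumours and 981, 771, 764 and 812 in luc β-catenin tumours of set 1, against 1549, 895 and 903 in lucOS p53 tumours and 1576, 978 and 1165 in luc p53 tumours. Its differences were -0.53 and -0.36 (adjusted p = 0.0849 and 0.265), below 0 in both sets. The Sesn1 difference of set 1 was -0.33 without lucOS β-catenin tumour 1 and -0.73 without lucOS β-catenin tumour 2, each with 1 tumour left in that group. Sesn2 was 0.45 and 0.05 (adjusted p = 0.322 and 0.948). Ddit4, another brake on mTORC1, was -0.04 and -0.52 (adjusted p = 0.943 and 0.248). The ribosomal protein homologue Rps27l was 0.24 and 0.04 (adjusted p = 0.375 and 0.93). Ak1, an adenylate kinase, was 0.67 and 1.13 (adjusted p = 0.287 and 0.155). Its signal was low, at 18.2 to 64.0 in β-catenin and 8.95 to 23.7 in p53 tumours of set 2.

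**Figure D4:**
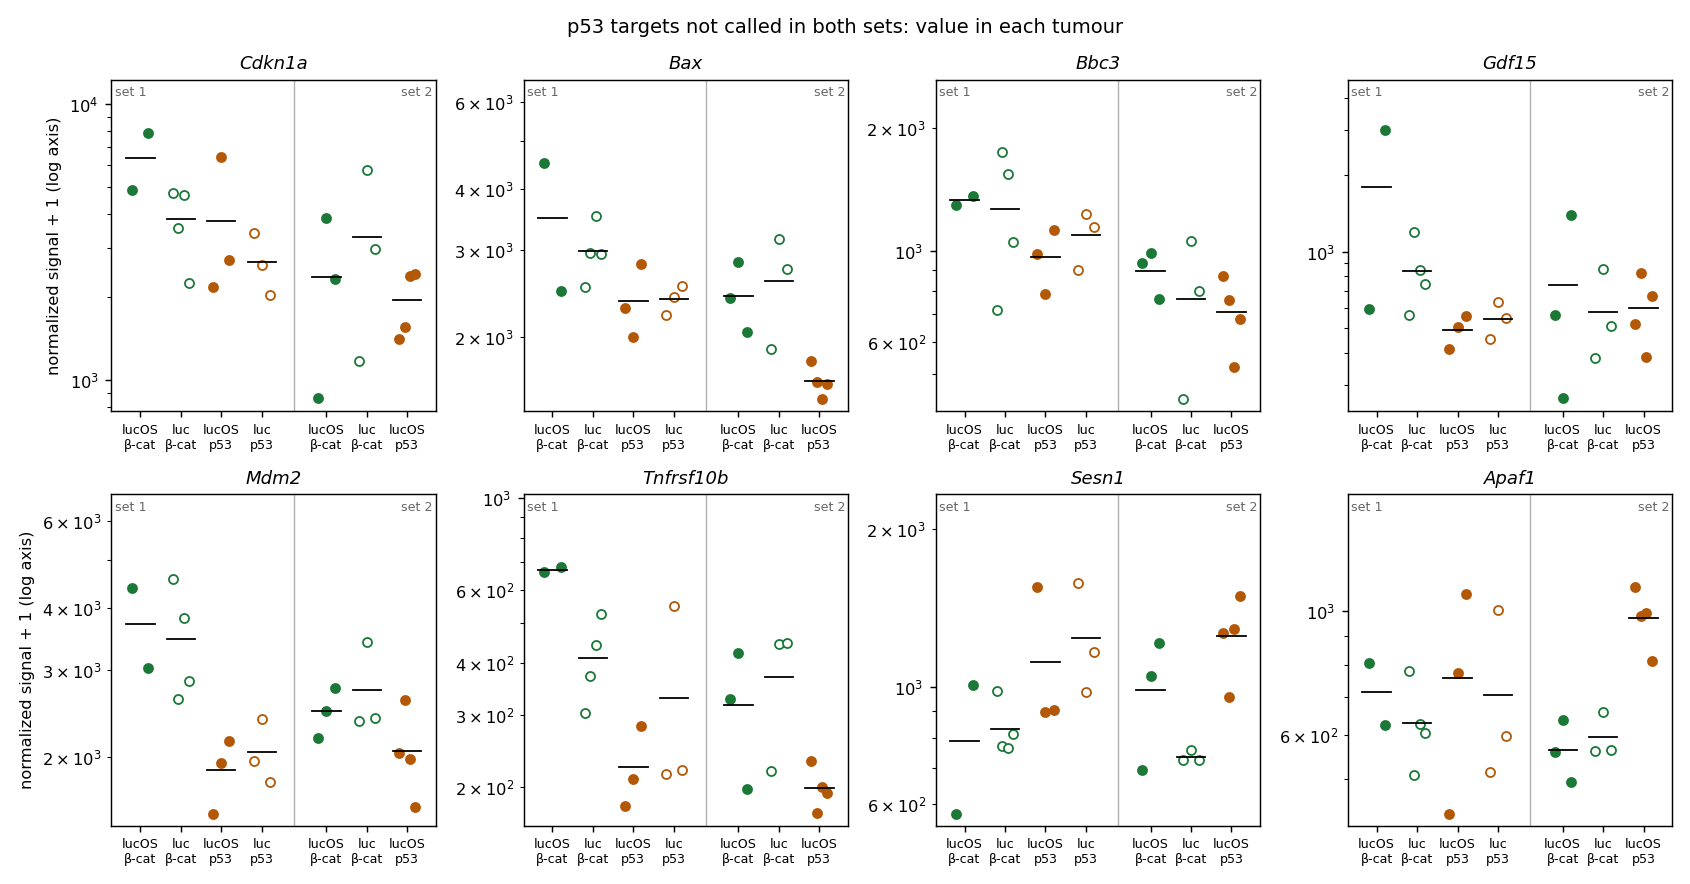
Normalized signal plus 1 (log axis) of 8 targets that were not called in both sets, drawn in the same way, with set 1 left and set 2 right of the grey line, β-catenin in green and p53 in orange, lucOS filled and luc open, and bars at group means. Green and orange points overlap for Cdkn1a, Bbc3, Gdf15, Tnfrsf10b and Sesn1 in both sets. Mdm2 separates the drivers in set 1 alone, and Bax and Apaf1, in opposite directions, in set 2 alone.

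Among the 7 targets that were higher in both sets, the β-catenin tumour with the highest value varied in set 1. In set 2, 1 β-catenin tumour was highest for most of them. Of the 6 β-catenin tumours of set 2, luc tumour 2 was highest for 6 of the 7 and luc tumour 1 lowest for 4 (Eda2r, Aen, Phlda3 and Zmat3). In set 1, lucOS tumour 2 was lowest for 5 and lucOS tumour 1 was highest for 3 (Aen, Phlda3 and Zmat3) and lowest for Dcxr. Among the p53 tumours of set 2, tumour 1 was lowest for 5. The highest β-catenin value was 1.99 times the lowest for Ccng1 in set 1 and 1.85 times in set 2. For Phlda3 these ratios were 8.12 and 5.14, and for Eda2r 2.83 and 5.09.

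The effect of the antigen was asked within each driver. Between lucOS and luc, no target passed in p53 tumours of set 1 or in β-catenin tumours of either set, nor did any other gene tested, since limma called 0.0% in each of these comparisons. At an unadjusted p under 0.05, limma counted 722, 222 and 288 of all genes in p53 tumours of set 1, β-catenin tumours of set 1 and β-catenin tumours of set 2, and 0 targets in each. edgeR called 0 genes and DESeq2 9, 18 and 10, none of them a target. Below an unadjusted p of 0.05, edgeR and DESeq2 each counted 3 targets in β-catenin tumours of set 1 (Btg2, Gdf15 and Plk2). The largest difference between lucOS and luc p53 tumours was that of Eda2r, at 1.54 (95% interval -0.86 to 3.94), and between lucOS and luc β-catenin tumours that of Plk2 in set 1, at 1.04 (-0.35 to 2.42), and that of Psrc1 in set 2, at -0.87 (-2.49 to 0.75). With intervals this wide a 2-fold effect of the antigen on these genes was not excluded.

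Whether the driver difference itself depended on the antigen was tested as the interaction in set 1. limma called 0 targets and 0.0% of all genes, edgeR 0 and DESeq2 17 genes, none of them a target. At an unadjusted p under 0.05 limma counted 436 genes and 0 targets, while edgeR and DESeq2 counted 2 targets (Plk2 and Tnfrsf10b). The interaction, lucOS minus luc, was 1.17 for Tnfrsf10b (-0.04 to 2.38), 1.82 for Plk2 (-0.09 to 3.72) and -2.01 for Eda2r (-5.51 to 1.49).

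Other genes of the p53 pathway were taken from lists. Of 25 further p53-induced genes, 4 were higher and 2 lower in set 1, and 2 were higher and 1 lower in set 2, where 9.73% and 18.6% of all genes were called higher and lower in set 1 and 6.08% and 10.9% in set 2. With 25 genes these counts lie near those shares. The list's median difference was 0.08 and 0.13. Ephx1, the microsomal epoxide hydrolase that detoxifies xenobiotics, averaged 21145 ± 9638 in β-catenin and 1031 ± 1012 in p53 tumours of set 1 (SD, n = 6 each), a log2 difference of 4.89 (limma adjusted p = 0.000127), with 3.84 in set 2 (adjusted p = 0.000412). Tigar, which lowers glycolytic flux, averaged 1814 ± 657 in β-catenin and 939.9 ± 206 in p53 tumours of set 1 (log2 0.93, adjusted p = 0.0275) and was also higher in set 2 (log2 1.07, adjusted p = 0.0397). Abhd4, a lipase, was at 0.53 in set 1 (adjusted p = 0.0362), and the repair nuclease gene Ercc5, named after its value was seen to complete the count, at 0.41 (adjusted p = 0.0377). Gadd45a, a stress sensor of growth arrest, was lower, like Pmaip1. It averaged 313 ± 243 in β-catenin and 813 ± 342 in p53 tumours of set 1 (log2 -1.42, adjusted p = 0.0189), and was lower in set 2 as well (log2 -1.90, adjusted p = 0.00503). Trp53i13 was at -1.27 in set 1 (adjusted p = 0.0267).

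Genes that p53 lowers through p21 and the DREAM complex, which are cell cycle genes, were lower in β-catenin tumours for 11 of 16 in set 1 and 6 of 16 in set 2, and higher for 0 in both, with 18.6% and 10.9% of all genes called lower. The list's median difference was -0.90 and -0.95, and that of all genes -0.16 in each. Top2a, the topoisomerase of dividing cells, averaged 5901 ± 2180.4 in β-catenin and 14926 ± 3003 in p53 tumours of set 1 (SD, n = 6 each; log2 -1.47, limma adjusted p = 0.00235), with a log2 difference of -1.78 in set 2 (adjusted p = 0.00757). The phosphatase gene Cdc25c was at -1.34, the checkpoint kinase gene Chek1 at -1.28, the spindle kinesin gene Kif23 at -1.14 and the spindle checkpoint gene Bub1 at -1.13 in set 1 (adjusted p from 0.00349 to 0.0081). Chek1 and Kif23 passed in set 2 too, at -1.42 and -1.44. Cdkn1a passed in neither set, and the part of p21 in these differences was not tested.

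Pmaip1 and Ddit4 also belong to the genes that the factors ATF4 and CHOP raise in the integrated stress response. Of 12 other such targets, 1 was higher (Cebpb, log2 0.79, limma adjusted p = 0.0278) and 1 lower (Psat1, log2 -2.03, adjusted p = 0.00312) in set 1, and 1 was higher in set 2 (Atf5, log2 1.38, adjusted p = 0.0114). These counts are close to or below the shares of all genes, 9.73% higher and 18.6% lower in set 1 and 6.08% and 10.9% in set 2. Their median difference was 0.07 and 0.31. Of 8 genes that regulate p53 or belong to its family, 7 passed the filter, and Trp63 did not. Cdkn2a, whose ARF product restrains MDM2, averaged 43.9 ± 38.6 in β-catenin and 2089.7 ± 2064 in p53 tumours of set 1 (SD, n = 6 each; log2 -4.71, adjusted p = 0.00484). In set 2 it averaged 54.1 ± 69.1 in β-catenin (n = 6) and 3289 ± 2557 in p53 tumours (n = 4), with a log2 difference within lucOS of -6.35 (adjusted p = 0.00962). The checkpoint kinase gene Chek2 was lower in both sets (log2 -1.07 and -0.99, adjusted p = 0.0114 and 0.044), and the damage kinase gene Atm in set 2 (log2 -0.66, adjusted p = 0.0427). Trp73, the p53 relative that binds the same half-sites, was called lower in both sets (adjusted p = 0.0118 and 0.0121) on few reads. They were 10 over 6 β-catenin and 284 over 6 p53 tumours of set 1, and 8 over 6 β-catenin and 117 over 4 p53 tumours of set 2.

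**Figure D5:**
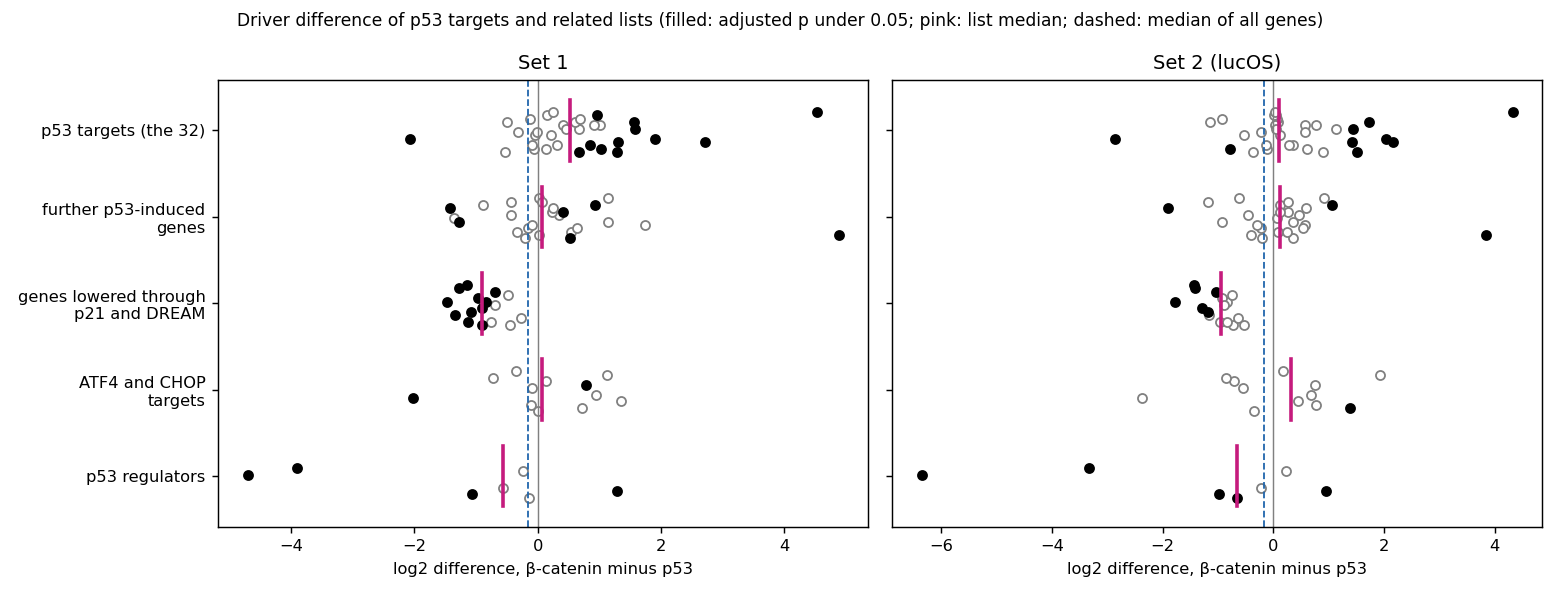
Each point is 1 gene, placed at its log2 difference, β-catenin minus p53, in set 1 (left) and in lucOS tumours of set 2 (right), in rows for the 32 targets and 4 related lists. Filled points passed an adjusted p of 0.05, pink bars are list medians and the dashed line is the median of all genes. The row of the 32 targets has filled points on both sides of 0, and that of the DREAM genes has filled points below 0 alone in both sets.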

How the data were processed

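RNA was extracted with Trizol, DNase and RNeasy columns and libraries were made with the TruSeq RNA kit, per the labels' protocols. The submitters' processing notes name TopHat2, featureCounts, DESeq2 and the mm10 build, without versions. The values are signal: per the deposited tables, all were whole multiples (tolerance 0.01) of 1 step per tumour, that is reads divided by 1 factor, so the authors had scaled but not length-corrected them. Whether counting used strand is not given in the sources used here, so reads of overlapping genes cannot be told apart (Ddb2 with Acp2, Bax with Gm45808, and Cdkn1a, Ei24 and Rrm2b with noncoding genes). The 2 tables were scaled separately and compared only within themselves. Depth was at least 33.551 M reads (1 M is 1e6) per tumour.

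Symbols turned into dates were restored for 53 entries of set 1, and 27 entries of set 2 with a number as symbol were left out. Of 33068 transcripts in set 1 the one with the highest mean stood for each gene. A gene was kept if 2 tumours (set 1) or 3 (set 2) reached a value of 10. log2(value + 1) was fitted with limma 3.58.1 (trend, R 4.3.3), all groups of a set in 1 fit, with Benjamini-Hochberg adjustment over all kept genes and a threshold of 0.05. A fold change is on that scale, where the added 1 shrinks differences of low genes but 1 value at 0 can widen them. For Eda2r in set 1, with 1 tumour at 0, the log2 difference was 4.53 with that tumour and 3.73 without it. Alternatives were TMM rescaling, median centring, pseudocounts of 5 and 0.5, no filter, summed transcripts, only the compared groups, JAX-named tumours, leaving out each tumour, and edgeR 4.0.16 and DESeq2 1.42.0 on the recovered reads. Leaving out either lucOS β-catenin tumour of set 1 left 1 tumour in that group, so its spread was not measured in such a fit. The fits were also run on simulated counts with 1 spread setting shared by all genes. The targets spread unequally between these tumours, so those runs do not bear on the calls given here. The tables hold Adgre1, Tf and Tigar as Emr1, Trf and 9630033F20Rik, and the markers Ly6g and Trac were not matched. The genes named are the 32 targets and, per list, at most 5 called genes with the largest log2 differences, besides Ercc5, which was named after its value was seen. The members and lists were chosen with earlier results of these data known.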

Additional observations from a re-analysis of the deposited data

Results flagged for a closer look

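Among 64 groups of 4 tumours examined over the 32 targets, 2 held a tumour far from the other 3, where chance gives about 1 in 20. Phlda3 was 1558 in luc β-catenin tumour 3 of set 1, against 384 to 538 in the other luc β-catenin tumours. Without it the log2 difference within luc tumours was 1.90 (limma adjusted p = 0.116) and that over set 1 was 2.49 (adjusted p = 0.0089). The call of Phlda3 within luc tumours was also lost on leaving out any other luc tumour (adjusted p from 0.0522 to 0.163). Dcxr was 3456 in luc β-catenin tumour 2 of set 1, against 1932 to 2125 in the other luc β-catenin tumours. Without it the difference within luc tumours was 1.82 (adjusted p = 0.0214) and that over set 1 was 1.81 (adjusted p = 0.00319).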

How the results depend on the processing

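Over set 1, 12 targets passed and every alternative gave 10 to 15. Ccng1, Dcxr, Eda2r, Epha2, Mdm2, Phlda3, Pmaip1 and Zmat3 passed in 20 of 20 of them. Within luc tumours 7 passed, against 11 with DESeq2 and 3 to 6 on leaving out 1 tumour (3 without luc p53 tumour 1 or luc β-catenin tumour 3). Within lucOS tumours of set 1, 2 passed, against 1 without the filter, 4 with edgeR, 10 with DESeq2, 1 with summed transcripts, 0 with only the compared groups and 0 to 3 on leaving out 1 tumour. In set 2, 9 passed, against 5 to 8 on leaving out 1 tumour (5 without p53 tumour 1 or 3). With JAX-named tumours alone, which hold 1 p53 tumour, all 9 kept their direction. The cause of the changes in these counts was not tested. The antigen and interaction comparisons gave 0 targets in every alternative.

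Some log2 differences of targets that had not passed changed sign; the cause was not tested. In set 1, TMM rescaling gave 0.041 for Plk2, 0.11 for Apaf1, 0.15 for Ei24, 0.070 for Xpc and 0.13 for Ddit4. In set 1, median centring gave 0.024 for Apaf1, 0.068 for Ei24 and 0.043 for Ddit4. In set 1, edgeR gave 0.15 for Plk2, 0.045 for Apaf1, 0.091 for Ei24, 0.017 for Xpc and 0.22 for Ddit4. In set 1, DESeq2 gave 0.14 for Plk2, 0.042 for Apaf1, 0.088 for Ei24, 0.012 for Xpc and 0.21 for Ddit4. Leaving out 1 tumour of set 1 gave -0.24 to 0.088 for Apaf1, -0.056 to 1.27 for Btg2, -0.32 to 0.24 for Ddit4, -0.19 to 0.080 for Ei24, -0.71 to 0.46 for Plk2, -0.31 to 0.74 for Psrc1 and -0.25 to 0.094 for Xpc. In set 2, TMM rescaling gave 0.042 for Fbxw7 and 0.018 for Xpc. In set 2, median centring gave 0.0068 for Fbxw7. In set 2, edgeR gave 0.050 for Fbxw7 and 0.055 for Xpc. In set 2, DESeq2 gave 0.051 for Fbxw7 and 0.054 for Xpc. In set 2, JAX-named tumours alone gave -0.28 for Cdkn1a, -0.75 for Btg2, -0.17 for Gdf15, 0.14 for Rrm2b and -0.19 for Rps27l. Leaving out 1 tumour of set 2 gave -0.11 to 0.36 for Btg2, -0.41 to 0.67 for Cdkn1a, -0.096 to 0.27 for Ddb2, -0.57 to 0.61 for Gdf15, -0.052 to 0.097 for Polk, -0.38 to 0.45 for Psrc1, -0.12 to 0.19 for Rps27l, -0.18 to 0.42 for Sesn2 and -0.38 to 0.030 for Xpc.

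No paired analysis was possible because the labels carry no replicate numbers, and the tumours were numbered in accession order. The smallest comparison has 2 against 3 tumours, and low reads limit Eda2r and Ak1 in p53 tumours and Trp73 throughout.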
